A study of Mus musculus with 7 samples.

Results

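Tfrc, Fth1, Ftl1, Ireb2, Aco1 and Ncoa4, 6 of 21896 annotated mouse coding genes, encode the core of cellular iron uptake, storage and sensing. They were taken as a set by function, and each was read from the H3K79me2 regions that overlap its RefSeq span on mm10, with the region of highest mean count standing for the gene. All 6 had a region, against 43.4% of all coding genes. H3K79me2 was mapped by chromatin immunoprecipitation and sequencing in macrophages grown for 7 to 8 days from the bone marrow of C57BL/6 mice with L929-conditioned medium as the M-CSF source. SGC0946, which inhibits DOT1L, the enzyme that methylates H3K79, was given at 1 µM during differentiation for 3 libraries, and the solvent DMSO for 3 others. The growth protocol speaks of wild-type and knockout animals without assigning them to libraries. The sources used here do not give the age of the mice or any pooling of animals.

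Macrophages take up iron on transferrin and from the red cells they digest, and store it in ferritin. TFRC is the transferrin receptor, and FTH1 and FTL1 are the heavy and light chains that assemble into the ferritin cage, the heavy chain carrying the ferroxidase activity. ACO1 (IRP1, which is the cytosolic aconitase when it holds an iron-sulfur cluster) and IREB2 (IRP2) bind iron-responsive elements in mRNAs, blocking ferritin translation and stabilising Tfrc mRNA when iron is low. NCOA4 is the receptor that delivers ferritin to lysosomes so that its iron is released. H3K79me2 is laid down by DOT1L over the 5′ part of transcribed genes.

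All 9 macrophage markers examined had a region (Csf1r, Spi1, Cd68, Adgre1, Itgam, Lyz2, Mertk, Cd14 and Fcgr1), against 1 of 8 erythroid (Klf1), 1 of 6 lymphoid (Lck), 1 of 6 neutrophil (Mpo) and 1 of 6 stromal and endothelial markers (Cxcl12). The regions of those 4 were each 500 bp with few counts, on average 4 in DMSO and 6 in SGC0946 for Klf1, 1.33 and 5.67 for Lck, 3.67 and 9 for Mpo and 0.33 and 6 for Cxcl12. They were thus not lower with SGC0946, and their part in the results was not tested. The total count per library was 16.7 to 19.5 M with DMSO and 2.95 to 3.13 M with SGC0946. Unscaled counts were called lower in 24820 of 24895 regions tested and higher in 5 (edgeR, adjusted p under 0.05), and a change in a region's share of its library's total is a different quantity. Both are given for each gene. The 3 libraries of a group are called biological replicates by the submitters.

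The regions of Tfrc, Ireb2, Aco1 and Ncoa4 began within 299 bases of an annotated start of the gene, and those of Fth1 and Ftl1 well before it. The sequence around the starts is shown. RefSeq windows of 300 bases (250 before to 50 after a start, GRCm38.p6) were found for all 6 genes. The window of each annotated start was searched on both strands for TATAA. It was searched in the same way for CCAAT, and for the GC-rich motif GGGCGG. In 4 genes a start window held TATAA on the transcript strand, and these stretches of 30 bases are aligned on it, with TATAA in capitals:
Fth1, chr19:9982662-9982691, plus strand: aggatcccgcTATAAgtgcggcccgctgtc
Ftl1, chr7:45459850-45459879, minus strand: gtcaacatgcTATAAaaggagcgctccttg
Tfrc, chr16:32608940-32608969, plus strand: ggggccgagcTATAAgctttgggtgggagg
Ncoa4, chr14:32165752-32165781, plus strand: gccggtagggTATAAacctggccgtcgagc
Of all 32851 windows in the RefSeq table, 17.5% held TATAA on the transcript strand and 24.9% on either strand. Percentages of windows are not percentages of genes, since Tfrc and Fth1 have 2 windows each and Ncoa4 has 3. In both ferritin genes TATAA lay after the annotated start, its first base at position 27 of the second of 2 starts in Fth1, which lies within the gene, and at position 18 of the single start in Ftl1. The window of the first Fth1 start held TATAA on the other strand. In Ncoa4 it lay at position -27 of the third of 3 starts, and in Tfrc at position -172 of the second of 2. The windows of both iron sensors held no TATAA on either strand, and for these the 150 bases before the start are given, with GGGCGG and its reverse complement CCGCCC in capitals:
Ireb2, chr9:54863605-54863754, plus strand: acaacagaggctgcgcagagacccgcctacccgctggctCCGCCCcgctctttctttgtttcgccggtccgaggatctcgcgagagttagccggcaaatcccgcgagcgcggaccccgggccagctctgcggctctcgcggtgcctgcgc
Aco1, chr4:40143115-40143264, plus strand: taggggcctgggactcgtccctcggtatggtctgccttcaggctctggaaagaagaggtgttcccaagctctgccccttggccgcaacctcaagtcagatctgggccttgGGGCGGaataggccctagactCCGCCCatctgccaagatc
GGGCGG in either orientation was in 35.7% of all windows, and among these genes in 1 window of each of the 6. The full windows of Ireb2 and Aco1 held more copies than the 150 bases shown. CCAAT in either orientation was in 37.4% of all windows, and among these genes in 1 window each of Fth1, Ftl1 and Tfrc.

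The mark lay over the 5′ part of the long genes and over the whole of the short ones. Tfrc (chromosome 16, span 32608896 to 32632794) had a region of 4464 bp, 32609093 to 32613556, that covered 18.7% of the span and began 29 bases before the nearest annotated start. Ireb2 (chromosome 9, 54862658 to 54912534) had 18725 bp, 54863476 to 54882200, covering 37.5%. Aco1 (chromosome 4, 40143265 to 40199009) had 19945 bp, 40143564 to 40163508, covering 35.8% and beginning 299 bases after its start. These 3 regions ended well before the 3′ end of the gene and overlapped no other coding gene. Ncoa4 (chromosome 14, 32159879 to 32179855) had a main region of 15965 bp, 32159894 to 32175858, covering 79.9% of the span, and a further region of 1335 bp, 32176577 to 32177911. Annotation used here gave spans and starts, so exonic and intronic parts were not separated.

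Both ferritin genes were covered in full by regions that reach beyond them. The Fth1 region (chromosome 19, 9979000 to 9985887, 6888 bp) held the whole span of the gene, 9980600 to 9985111, which makes up 65.5% of the region, and the last 716 bases of Best1, an ion channel gene, which make up 10.4%. The Ftl1 region (chromosome 7, 45457519 to 45467094, 9576 bp) also held the whole of Bax, which encodes a protein of apoptosis. Bax makes up 54.4% of that region and Ftl1 (45457944 to 45459886) only 20.3%, so the counts given for Ftl1 cannot be credited to Ftl1 alone. None of the 5 annotated ferritin pseudogenes searched (Fth-ps2, Fth-ps3, Ftl1-ps1, Ftl1-ps2 and Ftl2-ps) had a region. The sources used here do not say how reads that map to several ferritin copies were treated.

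**Figure D1:**
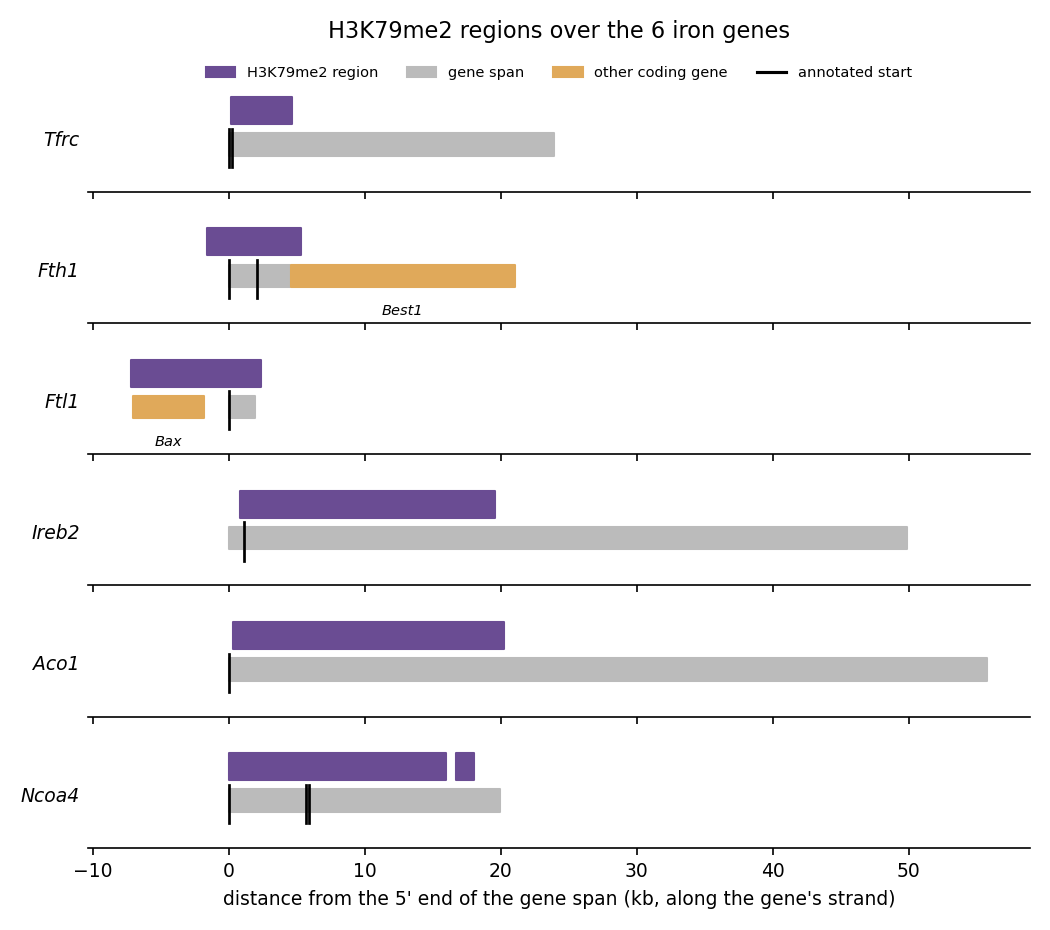
H3K79me2 regions (purple), gene spans (grey), other coding genes in the same region (orange) and annotated starts (black lines), in kb from the 5′ end of each gene span along its strand. The regions of Tfrc, Ireb2 and Aco1 stop within the gene, and the Ftl1 region runs back over Bax.

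With DMSO the ferritin regions were the densest and the Aco1 region the sparsest of the 6. Density is given as unscaled reads per kb of region, as mean ± SD over 3 libraries. Ftl1 with Bax had 236 ± 18.6 reads per kb and Fth1 223 ± 22.5, which placed them above 89.1% and 87.0% of the 8575 regions that stand for coding genes. Ncoa4 (205 ± 17.6) and Ireb2 (184 ± 16.8) followed, above 83.6% and 79.3% of them. Tfrc had 117 ± 13.4 and Aco1 86.9 ± 7.11, near the middle of the ranking at 56.3% and 41.6%. Neighbours in the order Ftl1, Fth1, Ncoa4 and Ireb2 overlapped in their values across libraries, but within each DMSO library the order was the same. Tfrc lay below all libraries of these 4 and above all libraries of Aco1. Densities are not relative to input, since the input sample was not used here.

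With SGC0946 the order changed. Fth1 was densest with 51.5 ± 8.42 reads per kb, followed by Ftl1 with Bax (44.1 ± 4.03), Ncoa4 (27.3 ± 0.755), Ireb2 (22.7 ± 1.52), Tfrc (22.6 ± 0.517) and Aco1 (8.79 ± 1.33). The libraries of Fth1 overlapped those of Ftl1, and the libraries of Ireb2 those of Tfrc. Within each SGC0946 library Fth1 was denser than the Ftl1 region, whereas Ireb2 and Tfrc changed order between libraries. Tfrc, which with DMSO was less dense than Ireb2 in every library, lay within the range of its libraries.

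**Figure D2:**
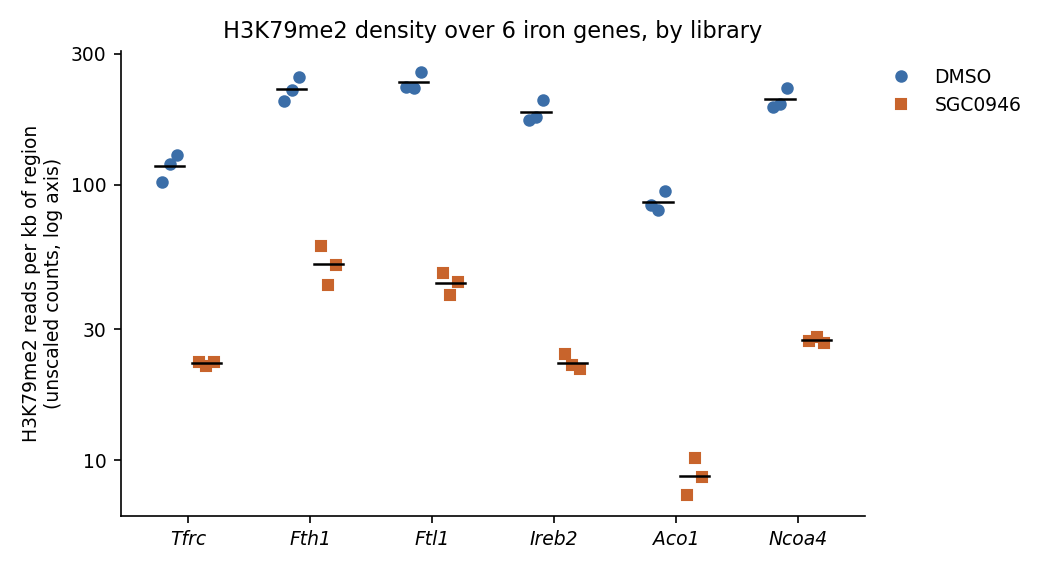
Unscaled H3K79me2 reads per kb of region (log axis) in each DMSO (circles) and SGC0946 (squares) library, with group means as black bars. All SGC0946 values lie below all DMSO values of the same gene, and Aco1 drops to 8.79 reads per kb, the lowest of the 6.

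Comparing SGC0946 with DMSO addresses how much of its unscaled counts each iron gene region kept once DOT1L was inhibited. The 5th percentile of reads per kb over all regions fell too. It comes from the weakest of the H3K79me2 regions, not from input or other sequence, and was subtracted as background in an alternative. It was 8.89 to 12 in the DMSO libraries and 1.79 to 2 in the SGC0946 libraries. The part of library depth in the percentages kept was not tested. All 6 regions fell in unscaled counts, and the genes differed in how much they kept, from 10.1% for Aco1 to 23.1% for Fth1. The uptake and storage regions (Tfrc, Fth1 and Ftl1 with Bax) kept 18.7% to 23.1%, and those of the iron sensors and of the ferritin receptor (Ireb2, Aco1 and Ncoa4) kept 10.1% to 13.4%. This grouping of the members was not set before the values were seen. Among the 7031 regions of coding genes that averaged 50 counts or more the median kept was 13.7%, with quartiles of 12.2% and 15.9%. All 6 falls passed the test (edgeR quasi-likelihood on unscaled counts, adjusted p under 0.05), as did 99.8% of the coding gene regions tested, so these calls do not set the genes apart.

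Tfrc, the entry point of transferrin iron, had 457, 533 and 575 counts in the DMSO libraries and 102, 98 and 102 in the SGC0946 libraries. The groups stood far apart, and the SGC0946 libraries were nearly equal. It kept 19.3%, an unscaled log2 fold change of -2.37 ± 0.14 (SE, edgeR adjusted p = 6.2e-60). As a share of the library it had 27.3, 31.4 and 29.5 reads per M library reads with DMSO and 32.6, 32.6 and 34.5 with SGC0946. Its share went up by log2 0.18 ± 0.10 (SE), which did not pass (edgeR adjusted p = 0.217). In edgeR it passed with TMM factors (log2 0.31, adjusted p = 0.0136) and with DESeq2 size factors (log2 0.29, adjusted p = 0.031). With the DESeq2 Wald test it did not pass (log2 0.29, adjusted p = 0.149). Scaled on the sparsest 25% of regions it was called lower (log2 -0.53, adjusted p = 0.00099). Tfrc kept more than 89.3% of the coding gene regions with at least 50 counts. Among the 2069 of them with 80 to 130 reads per kb in DMSO, where the median kept was 12.6%, it kept more than 99.1%.

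Fth1, the ferritin heavy chain, had 1389, 1527 and 1699 counts with DMSO and 414, 298 and 353 with SGC0946. The SGC0946 libraries varied more here than for any other of the 6 genes (SD 16.3% of the mean), and still stayed below all DMSO libraries. Fth1 kept 23.1% (unscaled log2 -2.12 ± 0.12 SE, edgeR adjusted p = 1.4e-74). On library totals it was the only member whose share was called higher, by log2 0.43 ± 0.07 (SE, edgeR adjusted p = 9.8e-08). The share was 83.0, 89.9 and 87.0 reads per M library reads with DMSO and 132, 99.1 and 120 with SGC0946. The rise passed without each library in turn, between log2 0.33 and 0.54, and was lost when libraries were scaled on the sparsest 25% of regions (log2 -0.25, adjusted p = 0.2).

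The region of Ftl1, the ferritin light chain, together with Bax had 2166, 2147 and 2465 counts with DMSO and 459, 382 and 426 with SGC0946. It kept 18.7% (unscaled log2 -2.42 ± 0.11 SE, edgeR adjusted p = 4.7e-103). As a share of the library it had 129, 126 and 126 reads per M library reads with DMSO and 147, 127 and 144 with SGC0946, and the lowest SGC0946 library lay within the range of the DMSO libraries. The change in share of log2 0.13 ± 0.06 (SE) did not pass (edgeR adjusted p = 0.0774). It passed without DMSO replicate 1 (adjusted p = 0.0387), without SGC0946 replicate 2 (adjusted p = 0.0123), when only regions averaging 50 counts or more were fitted (adjusted p = 0.0435), and with TMM factors (log2 0.27) and DESeq2 size factors (log2 0.24). It did not pass with the DESeq2 Wald test (log2 0.24, adjusted p = 0.0607). With the sparse scaling it was called lower (log2 -0.55, adjusted p = 0.0046).

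The iron sensor genes kept less. Ireb2 had 3211, 3319 and 3801 counts with DMSO and 456, 416 and 401 with SGC0946, the SGC0946 libraries well below. It kept 12.3% (unscaled log2 -3.02 ± 0.11 SE), and its share fell by 0.47 ± 0.05 on the log2 scale (SE, edgeR adjusted p = 1.3e-11). Aco1 had 1683, 1623 and 1893 counts with DMSO and 150, 203 and 173 with SGC0946, again without overlap. It kept 10.1% (unscaled log2 -3.30 ± 0.12 SE), and its share fell by 0.75 ± 0.08 on the log2 scale (SE, edgeR adjusted p = 2.5e-13). Of the coding gene regions with at least 50 counts, 1.71% kept less than Aco1 and 26.7% less than Ireb2.

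Ncoa4, the ferritin receptor of lysosomal delivery, had 3072, 3139 and 3589 counts with DMSO and 435, 449 and 425 with SGC0946 in its main region. It kept 13.4%, close to the median of coding gene regions (unscaled log2 -2.90 ± 0.11 SE). Its share fell by 0.35 ± 0.05 on the log2 scale (SE, edgeR adjusted p = 6.0e-08), little more than the median of tested coding gene regions, -0.28. The small 3′ region of Ncoa4 had 56, 43 and 74 counts with DMSO and 6, 5 and 8 with SGC0946 and kept 11.0%. The difference between the 2 Ncoa4 regions was not tested.

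In share, 1 of 6 members rose, 3 fell and 2 did not pass, where 9.69% of the 8154 coding gene regions tested rose and 49% fell. A single rise or 3 falls among 6 genes is thus near what coding genes showed in general. The split depended on the scaling. In edgeR there were 3 rises and 3 falls with TMM or DESeq2 size factors. No rise and 5 falls were seen when libraries were scaled on the sparsest 25% of regions. With the DESeq2 Wald test only Fth1 was called higher, and Ireb2, Aco1 and Ncoa4 were called lower. The median over coding gene regions also moved between these scalings, from -0.28 on library totals to -0.14 with TMM and -0.99 with the sparse scaling. Relative to that median, Tfrc stood 0.46, Fth1 0.72 and Ftl1 with Bax 0.41 higher on the log2 scale, and Ireb2 0.19, Aco1 0.47 and Ncoa4 0.07 lower. Rescaling the libraries shifts all regions nearly alike and so hardly bears on these differences. Over the 12 settings that kept library totals (other filters, background subtraction, summed regions, the replicate block and each library left out) they lay between 0.40 and 0.53 for Tfrc, 0.61 and 0.83 for Fth1, 0.35 and 0.48 for Ftl1, -0.22 and -0.15 for Ireb2, -0.59 and -0.35 for Aco1 and -0.11 and -0.03 for Ncoa4.

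**Figure D3:**
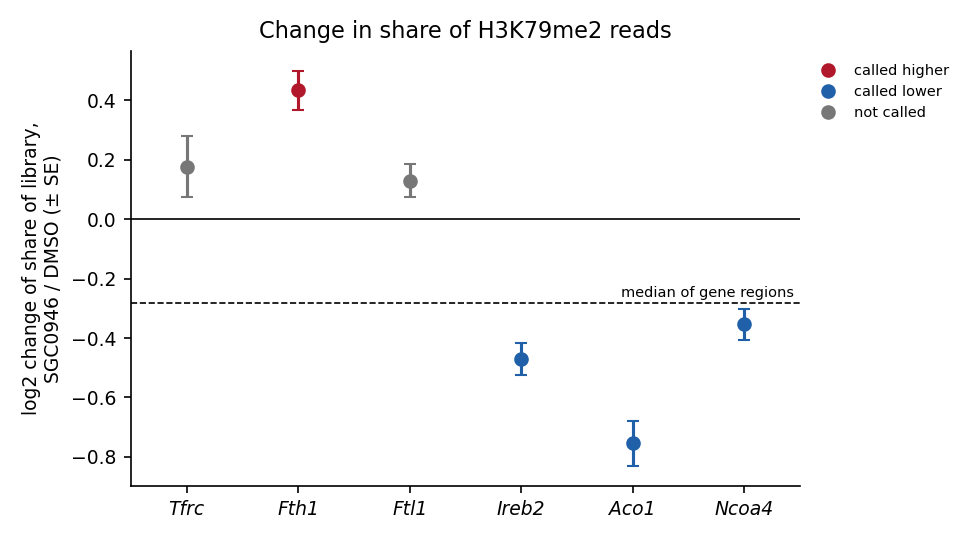
Log2 change of each gene's share of its library's reads (SGC0946 over DMSO, ± SE from edgeR, library-total scaling). The dashed line is the median of tested coding gene regions (-0.28), with Fth1, Tfrc and Ftl1 above it and Aco1 farthest below.

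Ratios of counts between members within a library do not depend on how libraries are scaled. The 15 pairs of members were compared, each by an exact 2-sided permutation test over libraries, for which 3 against 3 allow no p under 0.1. In 12 pairs the libraries of the groups did not overlap (exact p = 0.1, adjusted p = 0.125), and in 3 they did. Over all pairs of the 7031 coding gene regions averaging 50 counts or more 49.4% did not overlap, and over those of the 4540 averaging 300 or more, a minimum set after the members' counts were seen, 64.1%. Groups that do not overlap are thus common among coding gene regions. No pair can pass a threshold of 0.05 in this design.

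The ratios to Aco1 of the 3 uptake and storage regions moved 1.85-fold to 2.28-fold. Fth1 held 0.825, 0.941 and 0.898 counts for each Aco1 count in the DMSO libraries and 2.75, 1.47 and 2.04 in the SGC0946 libraries, a 2.28-fold higher ratio. Fth1 over Ireb2 went from 0.447 ± 0.014 to 0.835 ± 0.103 (SD, n = 3), 1.86-fold. The Ftl1 region over Aco1 went 1.85-fold higher and over Ireb2 1.51-fold. Tfrc over Aco1 went from 0.301 ± 0.029 to 0.585 ± 0.099 (SD, n = 3), 1.93-fold, and Tfrc over Ireb2 1.58-fold. Against Ncoa4, the ratios went up 1.71-fold for Fth1, 1.45-fold for Tfrc and 1.40-fold for the Ftl1 region. All 9 of these ratios of an uptake or storage region to a sensor or NCOA4 region were higher in every SGC0946 library than in any DMSO library, but they are built from 6 regions and are not separate results. Their shared direction follows from the percentages kept, which were higher for all 3 uptake and storage regions than for Ireb2, Aco1 and Ncoa4.

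Within each side, Aco1 over Ncoa4 moved most, from 0.531 ± 0.016 to 0.402 ± 0.054 (SD, n = 3), 0.753-fold and without overlap. Fth1 over the Ftl1 region was 0.641, 0.711 and 0.689 with DMSO and 0.902, 0.780 and 0.829 with SGC0946, 1.23-fold higher and without overlap. Tfrc over the Ftl1 region overlapped between groups (0.231 ± 0.019 and 0.240 ± 0.017, SD, n = 3, exact permutation p = 0.6), as did Tfrc over Fth1 (0.339 ± 0.010 and 0.289 ± 0.041, SD, n = 3, exact permutation p = 0.2). Ireb2 over Ncoa4 stayed near 1 with overlapping libraries (1.05 ± 0.008 and 0.973 ± 0.066, SD, n = 3, exact permutation p = 0.2). Ireb2 over Aco1 was 1.22-fold higher with SGC0946, its lowest SGC0946 library (2.047) just above its highest DMSO library (2.045).

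**Figure D4:**
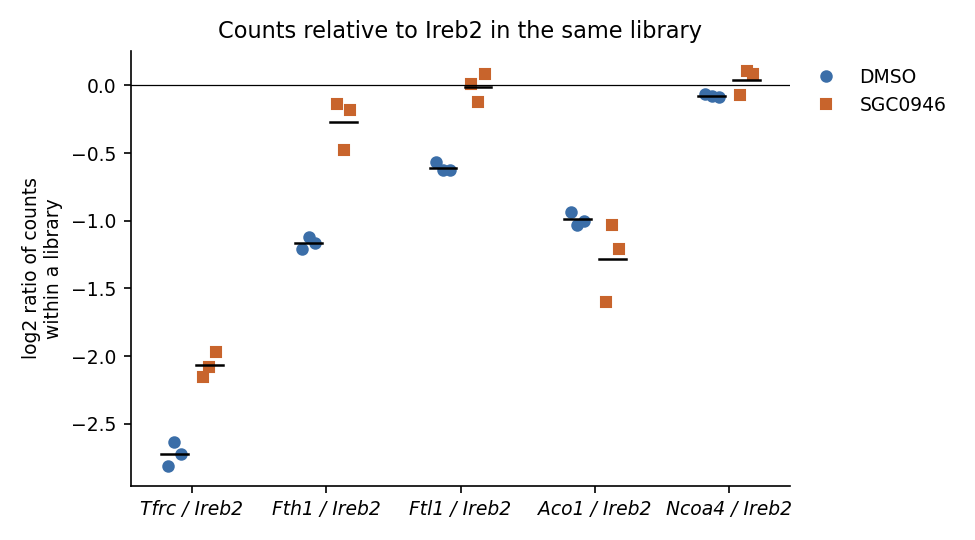
Log2 ratio of each gene's counts to those of Ireb2 in the same library, with DMSO as circles, SGC0946 as squares and group means as black bars. The ratios of Tfrc, Fth1 and Ftl1 are higher in all SGC0946 libraries, that of Aco1 is lower, and that of Ncoa4 overlaps.

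The genes that kept more also had the shorter regions. Tfrc, Fth1 and Ftl1 had regions of 4464 to 9576 bp, and Ncoa4, Ireb2 and Aco1 of 15965 to 19945 bp. Over coding gene regions with at least 50 counts, those of 4 to 10 kb kept a median of 13.5% (n = 2461) and those of 15 to 20 kb 13.7% (n = 593), with median densities of 121 and 177 reads per kb in DMSO. The part of length in the members' differences was not tested. By density, the medians kept were 12.6% at 80 to 130 reads per kb in DMSO and 14.2% at 180 to 240 (n = 977). Within the denser bracket, Fth1 kept more than 94.9% of regions, the Ftl1 region 85.2%, Ncoa4 36.1% and Ireb2 19.5%, and within the sparser one Aco1 kept more than 2.61%. These brackets were set after the members' values were seen. Coding genes with TATAA on the transcript strand of a start window kept a median of 14.3% (n = 657) and those without 13.7% (n = 5825), and their quartile ranges overlapped (12.6% to 17.0% and 12.2% to 15.8%).

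The other genes of iron handling were described by a list of 37, of which 26 had a region. All 26 fell in unscaled counts, and in share 7 rose, 12 fell and 7 did not pass, against 9.69% and 49% of coding gene regions. Their median log2 share was -0.19, beside -0.28 over all coding gene regions. Scaled on the sparsest 25% of regions, none rose and 20 fell, and with TMM factors 7 rose and 9 fell.

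The 4 uptake genes with a region all fell in share, as did 49% of the coding gene regions tested. Slc11a2 (the ferrous iron importer DMT1) kept 11.0% (log2 share -0.64), the endosomal ferrireductase gene Steap3 11.5% (-0.57), the phagosomal metal transporter gene Slc11a1 12.4% (-0.46) and the zinc and iron importer gene Slc39a14 12.4% (-0.45), with edgeR adjusted p from 1.1e-14 for Slc11a2 to 0.00292 for Slc11a1. The call of Slc11a1 was lost with TMM factors (adjusted p = 0.0509), with the DESeq2 Wald test (adjusted p = 0.174) and without SGC0946 replicate 2 (adjusted p = 0.063). The share of Tfrc, a member, was not called lower on library totals, but was with the sparse scaling (edgeR adjusted p = 0.00099). Trf, Steap4, Hfe, Slc39a8, Cybrd1 and Tfr2 had no region. Of the export genes, Slc40a1, which encodes the iron exporter ferroportin, kept 21.9% (943 ± 81.2 to 206 ± 9.07 counts, SD, n = 3) and rose in share by log2 0.36 (edgeR adjusted p = 8.3e-05). The haem exporter gene Flvcr1 kept 16.2% and did not pass, and Cp, Heph and Hamp had no region.

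All 10 genes of haem handling had a region, and 3 rose, 4 fell and 3 did not pass in share. Hmox1, the inducible haem oxygenase, kept 22.2% (log2 share 0.38, edgeR adjusted p = 3.9e-07), Lrp1, a receptor for haem bound to haemopexin, 23.9% (log2 share 0.48, and 0.18 with all 16 of its regions summed) and Bach1, the haem-sensing repressor, 19.2% (log2 share 0.17), and these rose. Hmox2, the constitutive haem oxygenase and the densest of the 26 with Pcbp1, Lrp1 and Bach1 (324 to 330.4 reads per kb in DMSO), kept 16.4% and did not pass, except when all of its regions were summed (log2 share -0.19, edgeR adjusted p = 0.000137) or with the sparse scaling. The biliverdin reductase genes Blvrb (10.5%, log2 share -0.71) and Blvra (11.6%, -0.56) and the ferrochelatase gene Fech (11.6%, -0.56) fell. The haem transporter gene Slc48a1 fell narrowly (14.2%, log2 share -0.26, edgeR adjusted p = 0.048, and -0.50 with both of its regions summed), a call lost without DMSO replicate 2 or 3 (adjusted p = 0.0514 and 0.0569) or SGC0946 replicate 1 or 2 (0.424 and 0.0763) and with TMM factors (0.441). In the region standing for Slc48a1 the fall was smaller than the median of tested coding gene regions (log2 share -0.28). Alas1 and Cd163 did not pass.

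The 5 genes of iron chaperones and of turnover of IRP2 and NCOA4 split. The poly(rC)-binding iron chaperone genes Pcbp2 (27.7% kept, log2 share 0.70, edgeR adjusted p = 9.2e-21) and Pcbp1 (21.7%, log2 share 0.34) rose, as did Tax1bp1, an autophagy receptor (18.6%, edgeR adjusted p = 0.0457). The call of Tax1bp1 was lost without DMSO replicate 1 or 3 (adjusted p = 0.109 and 0.133) or SGC0946 replicate 1 or 3 (0.273 and 0.144). It was also lost with all of its regions summed (edgeR adjusted p = 0.0924) and with the DESeq2 Wald test (adjusted p = 0.0667). Pcbp1 itself makes up 38.4% of its region. Fbxl5, the iron-sensing ubiquitin ligase subunit that degrades IRP2, kept 14.0% and fell (log2 share -0.28). That is the level of the median of tested coding gene regions (-0.28), and the call was lost with TMM factors (edgeR adjusted p = 0.12). The ligase gene Herc2 kept 11.6% and fell (log2 share -0.56). Of 5 mitochondrial genes with a region, the iron-sulfur assembly gene Glrx5 (11.0%, log2 share -0.63) and the mitoferrin gene Slc25a28 (13.3%, -0.36) fell, and Slc25a37, Iscu and Nfs1 did not pass. Scaled on the sparsest 25% of regions, the rises of Slc40a1, Hmox1, Lrp1, Bach1, Pcbp1 and Tax1bp1 turned to log2 -0.33, -0.30, -0.20, -0.52, -0.34 and -0.56, and Pcbp2 stood at 0.01.

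**Figure D5:**
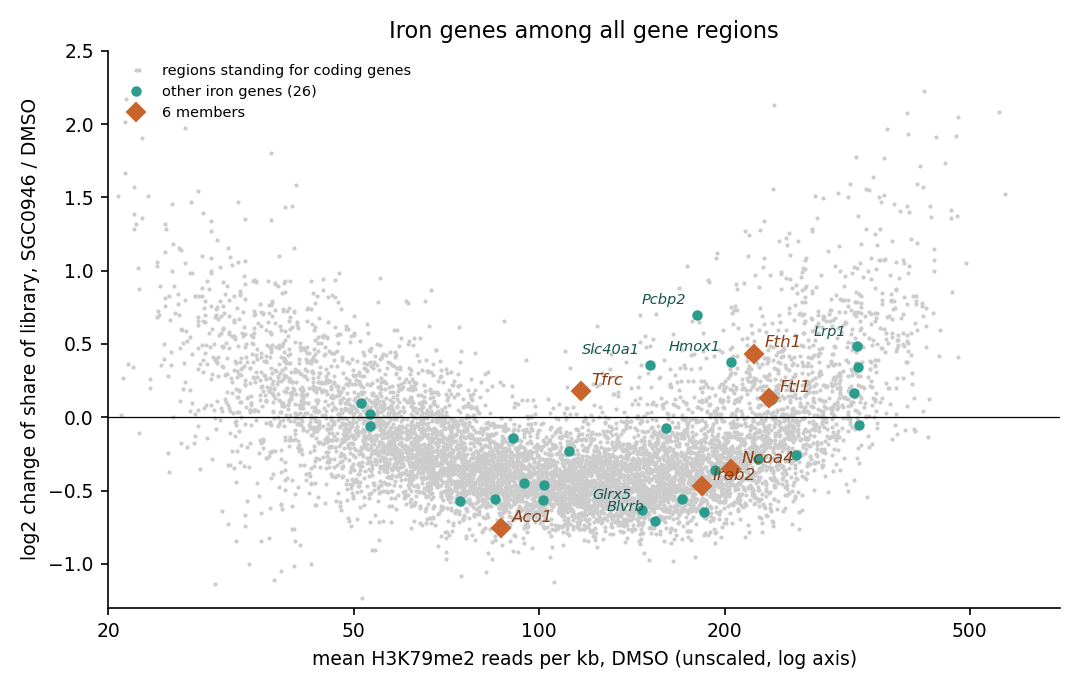
Log2 change of share (SGC0946 over DMSO, library totals) against mean DMSO reads per kb (log axis) for regions standing for coding genes (grey, 54 of 8154 lie outside the axes), the 26 other iron genes (green) and the 6 members (orange). Tfrc lies above nearly all regions of its density, Aco1 near the lower edge.

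The coding genes most like each member were found by the Euclidean distance over the 6 libraries in log2(reads per kb + 0.5), which reads level and percentage kept together. Tfrc was nearest to Mid1ip1 (118 reads per kb in DMSO, 19.1% kept, distance 0.11) and Vbp1 (111, 19.6%, distance 0.20). Fth1 was nearest to Vps4b (22.9% kept, distance 0.16) and Eif4a2 (21.6%, distance 0.23), and the Ftl1 region to Asah1 (17.7%, distance 0.11) and the listed gene Tax1bp1 (18.6%, distance 0.12). Ireb2 was nearest to Pid1 (12.2%, distance 0.09) and Plxnc1 (11.9%, distance 0.09), Aco1 to Mocs1 (10.3%, distance 0.15) and Dock1 (10.2%, distance 0.20), and Ncoa4 to a region shared by Zbed6 and Zc3h11a (13.1%, distance 0.05) and another shared by Dlst and Prox2 (13.8%, distance 0.08).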

How the data were processed

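The authors deposited whole-number read counts for 29397 regions in 6 H3K79me2 libraries. The submitters' processing notes name build mm10 and, without roles, R 3.6.3, bedtools 2.27.0, HOMER 4.11.1, HISAT2 and ChIPseeker 1.20.0. Region calling, duplicate removal and any thinning, each of which could change counts, are not given there. Regions were joined by overlap to RefSeq gene spans of GRCm38.p6 (Python 3.11.15, pandas 2.3.3). Counts were tested with edgeR 4.0.16 (R 4.3.3; glmQLFTest, filterByExpr, Benjamini-Hochberg over all regions), with library totals for shares and 1 equal library size for unscaled counts, since no spike-in is named. The biological coefficient of variation was 3.57% for shares. Standard errors derive from the fold change and F. Percentages kept are mean SGC0946 over mean DMSO counts. Pairs of libraries of a group differed beyond sampling noise (chi-square per degree of freedom 1.32 to 2.38). In simulated counts for this comparison (22507 regions tested), 44% of regions changed 1.25-fold, 82% at 1.5-fold, 96% at 2-fold and 100% at 4-fold were recovered, with 9 false calls. The 200 changed regions, some raised and some lowered, were drawn from those averaging 50 counts or more, with the same spread for every region. All other regions were left unchanged, unlike the data, where the median of tested coding gene regions was log2 -0.28 in share. The rates found do not cover sparser regions or such a shift. Alternatives included DESeq2 1.42.0. Other iron genes were named if called in share with a mean count of 50 or more (up to 12 by size of change) or among the 4 densest; Slc40a1, Slc48a1, Fbxl5, Tax1bp1, Slc25a28, Flvcr1 and those not called were named outside that rule, after their values were seen. A further listed iron gene and a macrophage marker are not reported here and are in none of the counts of their lists; without the former, Hmox1 came within the rule. Members and lists were chosen with earlier results of these data known.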

Additional observations from a re-analysis of the deposited data

How the results depend on the processing

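All 6 members fell in unscaled counts under every alternative tried (66 of 66 values). Of 90 alternative values of the members' shares, 80 kept direction and side of the threshold. Ireb2, Aco1 and Ncoa4 were called lower in all of them. With scaling on the sparsest 25% of regions, Tfrc (log2 -0.53), Fth1 (-0.25) and Ftl1 (-0.55) turned, 0 members rose and 5 fell, 0 other iron genes rose and 20 fell, and Slc40a1, Hmox1, Cd163, Lrp1, Bach1, Pcbp1 and Tax1bp1 turned to -0.33, -0.30, -0.69, -0.20, -0.52, -0.34 and -0.56. With that scaling the median over coding gene regions stood at log2 -0.99, beside -0.28 on library totals. TMM factors and DESeq2 size factors in edgeR brought Tfrc (0.31 and 0.29) and Ftl1 (0.27 and 0.24) past the threshold, for 3 rises each. The DESeq2 Wald test did not (adjusted p = 0.149 for Tfrc and 0.0607 for Ftl1). Ftl1 also passed when only regions averaging 50 counts or more were fitted (0.13; 2 rises). Leaving out each library in turn gave Ftl1 between 0.091 and 0.192, Tfrc between 0.13 and 0.22, and 1 to 2 rises. The ratio of Tfrc to Ftl1 changed by log2 -0.0055 to 0.112 when a library was left out, turning without DMSO replicate 1. The other ratios kept their direction. Libraries of the same number deviated together no more than libraries of different numbers (correlations -0.11 to 0.01 and -0.10 to 0.10, over 11055 regions). Whether libraries of the same number share an animal or a preparation cannot be told from this. With a replicate block, 1 member rose, 3 fell, Fth1 stood at 0.43 and no call of a member changed, while the calls of Slc48a1 and Tax1bp1 were lost (adjusted p = 0.0777 and 0.0776). The depth of the SGC0946 libraries limits the small Ncoa4 region and Nfs1 (4.67 counts on average). The cause of the changed calls was not tested.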
